A study of Homo sapiens with 2 samples.

Results

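Antisense long noncoding RNA genes are named after the gene they lie against, with the suffix -AS1, -AS2 or -AS3. Of 1234 genes with such a suffix in the count matrix, 823 had at least 1 UMI (unique molecular identifier, a tag that counts each captured RNA molecule once) in the kept cells and 411 had 0. The 85 genes with at least 200 UMIs summed over the kept cells are described here, out of 9686 genes that reached that total and 36601 genes in all. The total UMI count chose them, so their abundance is a description. Just inside the threshold were DLGAP1-AS1 with 213 UMIs, SLC25A25-AS1 with 210 and UCKL1-AS1 with 209, and just outside were HOXA-AS3 with 198, XXYLT1-AS2 with 195 and ARRDC1-AS1 with 194.

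Antisense transcripts are made from the strand opposite to a gene, here called the namesake. Some start close to the namesake's own start and run away from it, and others run through its body, where their exons can pair with its transcript. A few are known to act at their locus, others act elsewhere in the cell, and for many no role is established. GAS and ISRE elements are short promoter motifs of interferon response genes. TNF acts through NF-kB.

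The cells were OVCAR5, an established human ovarian carcinoma line, carrying a reporter that senses interferon gamma and grown as tumours in NSG-b2m-/- mice. Cells of 5 tumours were pooled and digested, then left unstimulated, given 10 ng/ml TNFa, or given 100 ng/ml IFNy with 10 ng/ml TNFa for 6 h in vitro, with 5 labelled entries for each of these conditions. Hashtag antibodies marked the entries, which were combined, and the CFP+ cells that the labels call bystanders were sorted into 1 gene expression library with 1 hashtag library. All groups thus share the line, the reporter, the host and the sort.

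Each cell carried a pair of hashtags, and 15 pairs were seen, called hashed samples below. No label ties a hashtag to a treatment. The pairs were therefore taken in 3 sets of 5 that earlier work inferred from response genes in these same cells: a low-response set, an NF-kB-response set and a both-response set. A list of 16 interferon gamma response genes summed to 4.41 to 6.43 UMIs per 10000 UMIs in the low-response set, 6.49 to 13.1 in the NF-kB-response set and 186 to 284 in the both-response set. A list of 14 TNF and NF-kB genes stood at 6.86 to 10.8, 58.3 to 89.6 and 95.2 to 115 in the same order. Because the sets were made from the data, differences between them are given as values with no test. The hashed samples also come from 1 pool of tumours and 1 library, so their spread may be technical.

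Of 5269 barcodes, 3538 were kept as cells, and 3144 of these (88.9%) had 1 clear pair. Kept cells had medians of 11555 UMIs and 3234 genes, with 13.1% of UMIs from mitochondrial genes. Hashed samples held 49 to 630 cells and 582102 to 7324691 UMIs, with like depth in each set: the medians per cell ran from 10942 to 12369, from 11095.5 to 12405 and from 10952 to 11881 UMIs. Epithelial marker genes, 7 in all, summed to 65.2 to 80.8 per 10000 UMIs in the low-response set, 39.2 to 59.9 in the NF-kB-response set and 37.3 to 44.9 in the both-response set. This sum was mostly keratins: over all kept cells KRT8, KRT18 and KRT19 gave 14.0, 24.5 and 12.2 of 56.0. EPCAM gave 4.15, CLDN4 0.954, MUC1 0.0951 and CDH1 0.0319, and single markers were not compared between sets. All 3 erythroid markers, 4 of 5 T or NK cell markers, 1 of 3 B cell markers and 1 of 4 endothelial markers were at 0, and no hashed sample exceeded 0.267 for the 4 myeloid, 0.0501 for the 4 endothelial or 0.0464 for the 4 fibroblast markers. The part of the difference in epithelial markers in the results below was not tested.

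The 85 antisense genes made up a small and uneven share of the RNA. Together they held 73209 UMIs, 0.166% of the UMIs in kept cells, and their median was 457 UMIs against 1045.5 for all genes past the same threshold. PAX8-AS1 alone gave 12.1% of these UMIs, and the 8 most abundant antisense genes gave 41.4%. Levels are UMIs of a gene per 10000 UMIs of the hashed sample. The library counts each molecule once near its 3' end, so levels were not divided by gene length. Intervals printed with them are exact at 95% and cover counting error only.

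PAX8-AS1 lies at chr2:113211522-113276581 (GRCh38, plus strand) across PAX8, a transcription factor of Müllerian epithelium and a marker of ovarian carcinoma. Its 5 levels were 1.94, 1.77, 1.98, 1.77 and 2.40 in the low-response set and 2.26, 2.22, 2.27, 2.37 and 2.44 in the NF-kB-response set. In the both-response set they were 1.36, 1.33, 2.03, 1.37 and 1.27. The both-response values lay below all NF-kB-response values, with a ratio of set medians of 0.599, and HTO3+HTO9 at 2.03 reached into the low-response range. PAX8 itself had set medians of 0.191, 0.197 and 0.134, and the antisense gene held 91.3%, 92.0% and 92.1% of the pair's UMIs in the 3 sets. The share of PAX8-AS1 in the pair thus moved by less than its counting intervals, the widest of which ran from 90.7% to 93.3%.

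GABPB1-AS1 starts 449 bp from GABPB1, which encodes a subunit of the ETS-family factor GABP, and the 2 genes diverge. Its levels were 1.44, 1.35, 0.882, 1.33 and 1.40 in the low-response set. They were 1.01, 1.00, 0.893, 0.993 and 1.02 in the NF-kB-response set and 0.595, 0.660, 0.678, 0.697 and 0.681 in the both-response set. The both-response set lay below each of the other sets with no overlap, at 0.502 of the low-response median, while HTO3+HTO7 at 0.882 brought the low-response range down over the NF-kB-response values. GABPB1 had set medians of 0.186, 0.255 and 0.293, in the opposite order, with overlapping ranges. GABPB1-AS1 gave 87.4% of the pair's UMIs in the low-response set (exact binomial interval 85.8% to 88.9%), 80.3% in the NF-kB-response set (78.5% to 82.1%) and 68.2% in the both-response set (65.3% to 71.0%). By hashed sample that share was 80 to 89.3%, 69.3 to 82.3% and 60 to 71.1%.

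OTUD6B-AS1 starts 7 bp from OTUD6B, a deubiquitinase gene, on the other strand. It stood at 0.904 to 1.09 in the low-response set, 0.854 to 1.10 in the NF-kB-response set and 0.509 to 0.649 in the both-response set. Only the last set stood apart, and OTUD6B-AS1 gave 83.1%, 83.6% and 81.2% of the pair's UMIs in the 3 sets. OIP5-AS1, also called cyrano, is a long noncoding RNA whose namesake encodes a centromere protein. Its levels were 0.578, 0.445, 0.463, 0.486 and 0.525 in the low-response set, 0.363, 0.345, 0.395, 0.310 and 0.387 in the NF-kB-response set and 0.248, 0.233, 0.170, 0.220 and 0.160 in the both-response set. The 3 sets formed 3 separate ranges, stepping down to 0.452 of the low-response median. OIP5, with 76 UMIs in all kept cells, was too sparse to set beside it.

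Of the other abundant antisense genes, IGFL2-AS1 is described further on with those called lower. EPB41L4A-AS1, which hosts a small nucleolar RNA, had medians of 1.02, 0.996 and 0.826. THUMPD3-AS1, named after a tRNA methyltransferase gene, had medians of 0.646, 0.775 and 0.660, and its share of the pair's UMIs was 62.2%, 69.1% and 71.3%. ZFPM2-AS1, named after a GATA cofactor gene, had medians of 0.463, 0.433 and 0.414 with overlapping ranges. ZFPM2 had only 18 UMIs, so this antisense gene was counted with hardly any of its namesake.

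**Figure D1:**
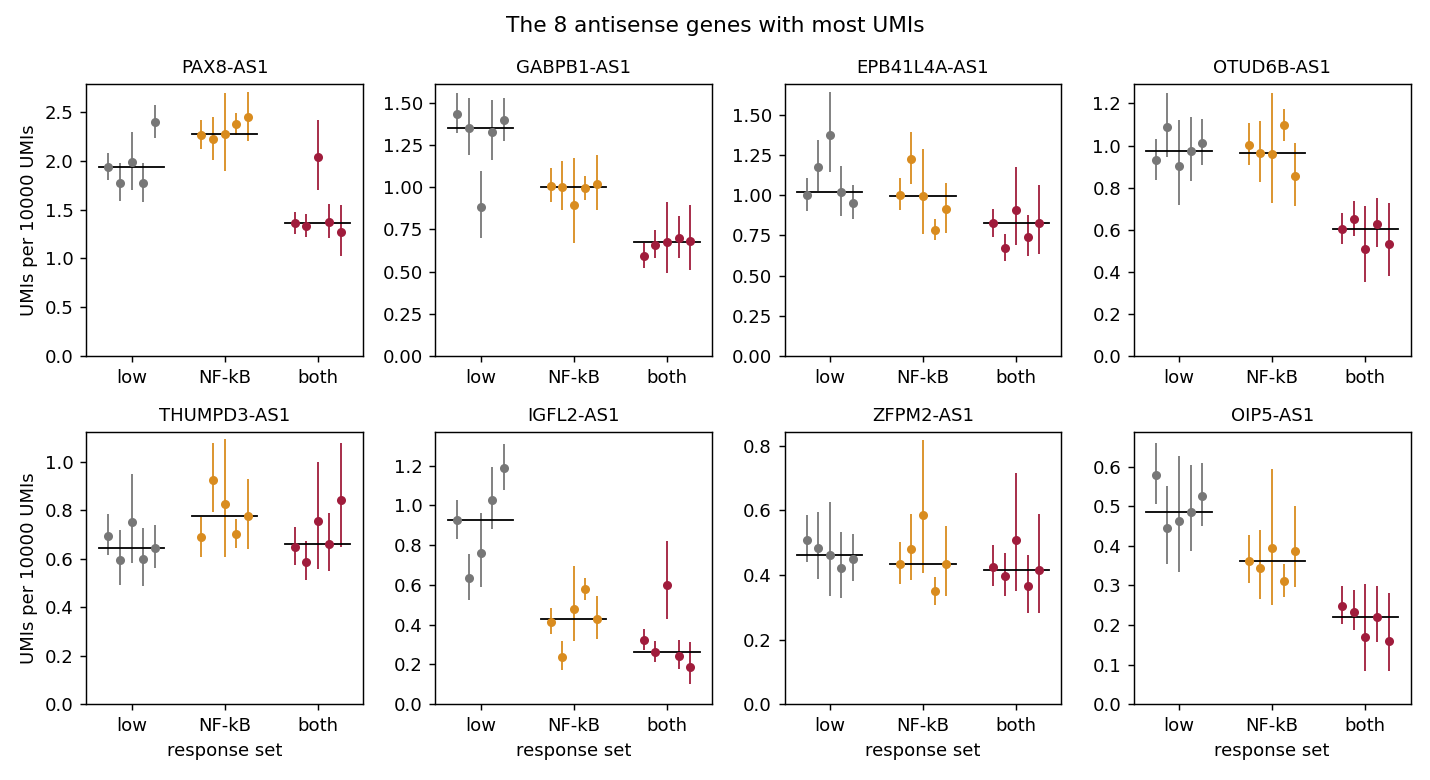
Levels of the 8 antisense genes with most UMIs, in UMIs per 10000 UMIs, for the 15 hashed samples in 3 response sets of 5. Points are hashed samples, vertical lines are exact 95% Poisson intervals (counting error only) and horizontal lines are set medians. OTUD6B-AS1 and OIP5-AS1 were lowest in all 5 both-response samples, while ZFPM2-AS1 had medians between 0.414 and 0.463 in all sets.

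Across all 85 antisense genes the shift between sets was close to that of the whole table. A ratio below is 1 set median over another, with a median of 0 put at a floor of 3 counts over the set. The median log2 ratio of the NF-kB-response over the low-response set was -0.09 for the antisense genes and -0.07 for all 9686 genes. It was -0.22 and -0.17 for the both-response over the NF-kB-response set, and -0.34 and -0.24 for the both-response over the low-response set. In the last comparison 63 of the 85 (74.1%) were below 0, as were 72.4% of all genes. Scaling by median-of-ratios size factors moved the all-gene median of that comparison from -0.24 to -0.02. Such factors centre the ratios of all genes by design, so nothing is read from that move. The 3 comparisons share sets and are not independent.

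The summed level of the 85 genes ran from 16.7 to 19.6 in the low-response set, from 15.1 to 17.2 in the NF-kB-response set and from 13.7 to 15.3 in the both-response set. Under median-of-ratios scaling, chosen after seeing the data, the ranges became 16.2 to 18.3, 15.3 to 16.9 and 14.8 to 16.5, and the both-response set overlapped the other two. Without PAX8-AS1 the ranges were 14.7 to 17.2, 12.9 to 14.9 and 12.4 to 13.3. The 22 divergent-transcript genes with the suffix -DT, a like class, summed to 2.94 to 3.55, 2.39 to 2.79 and 2.39 to 2.59. The 44 genes with names that start with LINC summed to 7.69 to 8.64 in the low-response set and 8.48 to 9.97 in the both-response set. The set medians of this sum went the other way, at 8.11, 8.74 and 8.88. Counted by gene, LINC genes did not: their median log2 ratio of the both-response over the low-response set was -0.25, with 65.9% below 0.

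**Figure D2:**
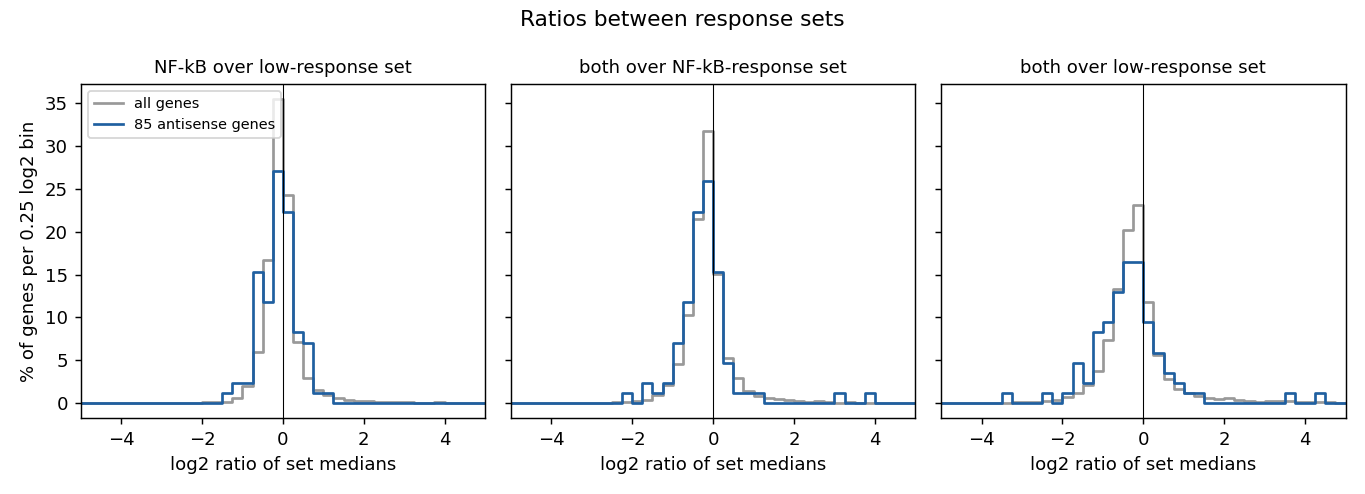
Distribution of log2 ratios of set medians for the 85 antisense genes (blue) and for all 9686 genes with at least 200 UMIs (grey), as a percentage of genes per 0.25 log2 bin, for the 3 pairs of sets. The bulk of both distributions lies over the same bins in each panel, with medians of -0.34 and -0.24 in the right panel, and 2 antisense genes lie above 3 there.

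A gene was called between sets when its 5 values in 1 set did not overlap the 5 in the other and the set medians differed at least 2-fold. The NF-kB-response set over the low-response set gave 0 antisense genes called higher, where 1.87% of all genes were, and 2 called lower, where 0.423% were. With no overlap alone, 0 were higher (3.96% of all genes) and 5 lower (4.05%). For the both-response over the NF-kB-response set 3 were called higher (2.86% of all genes) and 2 lower (1.65%). With no overlap alone, 3 were higher there (5.61%) and 9 lower (9.2%). For the both-response over the low-response set 2 were called higher (5.03% of all genes) and 8 lower (5.78%). With no overlap alone, 2 were higher (8.43%) and 15 lower (19.6%). As shares of the 85, the called counts above 0 were 2.35% lower in the first comparison, 3.53% higher and 2.35% lower in the second and 2.35% higher and 9.41% lower in the third. They rest on 2 to 8 genes, and nothing is read from them about antisense genes as a class. RNF213-AS1 had 56 UMIs outside its highest set, the both-response set, and passed the threshold of 200 only through it. Other called genes also passed only through their highest set. ARHGAP5-AS1 had 152 UMIs and ZBED5-AS1 178 outside the low-response set, and SLC9A3-AS1 had 150 outside the NF-kB-response set. The single genes are described next, grouped by direction.

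MMP25-AS1 was the antisense gene with the largest ratio. It lies at chr16:3037403-3059370 on the minus strand, with 1454 exonic bases shared with MMP25, which encodes a membrane-anchored matrix metalloproteinase. Its levels were 0.0465, 0.0536, 0, 0.0237 and 0.0413 in the low-response set and 0.0800, 0.0485, 0.0515, 0.0696 and 0.0591 in the NF-kB-response set. In the both-response set they were 0.877, 0.816, 0.771, 0.890 and 0.828. All 5 both-response values were far above the other 10, with a ratio of set medians of 20.1 over the low-response set (log2 4.33) and 14.0 over the NF-kB-response set (log2 3.81). In cells thinned to 5000 UMIs, 34.9% of both-response cells held at least 1 UMI of it, against 3.05% in the NF-kB-response set and 1.91% in the low-response set, and the shares before thinning were 56.8%, 7.28% and 4.54%.

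MMP25 itself gave 102 UMIs in all kept cells, so its values rest on few molecules. Its levels were 0.0154 to 0.0802 in the both-response set and at most 0.0197 in the NF-kB-response set, so these ranges overlapped. In the low-response set they were at most 0.00516, with 0 in 3 of 5 hashed samples, so MMP25 was higher in the both-response set with no overlap there, as MMP25-AS1 was. MMP25-AS1 gave 961 of 1026 UMIs of the pair in the both-response set, 93.7% (exact binomial interval 92.0% to 95.1%). It gave 104 of 121 in the NF-kB-response set and 46 of 49 in the low-response set. The exons of this pair overlap and strand use in counting is not stated, so reads of MMP25 counted as MMP25-AS1 were not tested. The nearest expressed gene start on the opposite strand is that of IL32, a cytokine gene, 5927 bp away. IL32 is in the TNF list that marked the sets and stood at 0.483 to 0.848, 1.98 to 2.55 and 14.2 to 16.1 per 10000 UMIs. IL32 was thus already higher in the NF-kB-response set, where MMP25-AS1 overlapped the low-response range.

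RNF213-AS1 was the other antisense gene called higher in both comparisons with the both-response set. It lies at chr17:80351828-80415168 on the minus strand and overlaps RNF213, an interferon-inducible E3 ubiquitin ligase gene, over 559 exonic bases. Its levels were 0.00258, 0.0161, 0.0110, 0.0119 and 0.0295 in the low-response set and 0.0150, 0.0215, 0.0172, 0.00956 and 0.0197 in the NF-kB-response set. In the both-response set they were 0.176, 0.158, 0.0771, 0.156 and 0.200. The lowest of these, HTO3+HTO9, was still above all 10 others, and the ratio of set medians was 13.3 over the low-response set (log2 3.74) and 9.22 over the NF-kB-response set (log2 3.20). The counts are low: 17, 21 and 184 UMIs in the 3 sets.

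RNF213 was higher in the same samples, with levels of 0.937 to 1.56, 1.07 to 1.96 and 7.75 to 12.9. RNF213-AS1 gave 1.11% of the pair's UMIs in the low-response set (exact binomial interval 0.646% to 1.77%), 0.752% in the NF-kB-response set (0.466% to 1.15%) and 1.44% in the both-response set (1.24% to 1.66%). The low-response and both-response intervals overlap, whereas the NF-kB-response and both-response intervals do not. By hashed sample the share was 0.193% to 1.86%, 0.484% to 1.59% and 0.984% to 1.79% in the 3 sets, so these ranges overlapped. The exons of the 2 genes overlap, and the labels and headers do not say whether counting used strand, so reads of RNF213 counted as RNF213-AS1 were not tested. RNF213-AS1 starts 3 bp from ENDOV, an endonuclease gene on the other strand. ENDOV stood at 0.381 to 0.552, 0.345 to 0.515 and 0.414 to 0.558, with the 3 ranges overlapping.

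C1RL-AS1 lies at chr12:7108052-7122501 on the plus strand, and its start is 1221 bp from that of C1RL, a gene for a protease like complement C1r. Its levels were 0.0749, 0.0590, 0.110, 0.0237 and 0.0649 in the low-response set, 0.0850, 0.0646, 0.0172, 0.0765 and 0.0854 in the NF-kB-response set and 0.146, 0.161, 0.0925, 0.156 and 0.174 in the both-response set. The both-response values lay above the NF-kB-response values with a ratio of medians of 2.04, but overlapped the low-response set through HTO3+HTO9 at 0.0925 and HTO3+HTO7 at 0.110. C1RL had set medians of 0.0929, 0.128 and 0.254. The antisense gene held 40%, 35.7% and 36.2% of the pair's UMIs, with overlapping intervals.

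Both cytokines act through factors that bind promoters. The sequences before the starts are therefore shown for the antisense genes called higher and, of those called lower, for B3GALT5-AS1 only. They come from RefSeq promoters of GRCh38.p14, from 250 bases before to 50 after a gene's start, and 68 of the 85 genes matched an entry, with 82 promoters. Both strands were searched for GAS (TTCNNNGAA), an ISRE core (GAAA, any 2 bases, GAAA) and the NF-kB consensus, and matches of different motifs may share bases. Capitals mark a match. MMP25-AS1 is shown as chr16:3059521-3059549 on the minus strand, around the GAS match 169 bp before the start. This match lies inside an exon of MMP25, which spans -1356 to 543 bp from the start of MMP25-AS1 along its transcription. C1RL-AS1 is shown as chr12:7108058-7108357 on the plus strand with the NF-kB matches 109 and 82 bp before the RefSeq start. That start lies inside the GENCODE 29 span given for C1RL-AS1, so both matches lie within that span and not before it. RNF213-AS1 is shown as chr17:80415195-80415314 and B3GALT5-AS1, described further on, as chr21:39612773-39612939, both on the minus strand.
MMP25-AS1: aagctggctcTTCCTGGAAaaggaaggtc
C1RL-AS1: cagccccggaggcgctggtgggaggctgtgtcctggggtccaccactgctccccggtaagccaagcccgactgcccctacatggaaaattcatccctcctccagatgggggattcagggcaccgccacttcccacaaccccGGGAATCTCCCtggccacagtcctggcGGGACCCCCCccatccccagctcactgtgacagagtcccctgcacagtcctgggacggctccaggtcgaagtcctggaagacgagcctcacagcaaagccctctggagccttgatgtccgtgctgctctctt
RNF213-AS1: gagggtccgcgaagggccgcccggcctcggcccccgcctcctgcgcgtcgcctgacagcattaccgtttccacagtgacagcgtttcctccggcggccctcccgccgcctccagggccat
B3GALT5-AS1: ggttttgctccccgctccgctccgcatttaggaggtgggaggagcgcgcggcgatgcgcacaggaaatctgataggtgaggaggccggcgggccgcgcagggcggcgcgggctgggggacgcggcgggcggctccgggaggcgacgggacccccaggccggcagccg

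The MMP25-AS1 window also held 1 NF-kB consensus match, 207 bp before the start, which is not printed. The printed stretches of RNF213-AS1 and B3GALT5-AS1 held none of the motifs, which says only that these letters are not in these windows. Among called genes that are not printed, the HOXA-AS2 window held 1 ISRE core and the PITPNA-AS1 window 1 GAS and 1 NF-kB match. Those of ARHGAP5-AS1, OIP5-AS1, MAPKAPK5-AS1, ZBED5-AS1 and SLC9A3-AS1 held none. Motifs were thus also found at genes called lower. Over all 35116 RefSeq promoters, 7.66% held a GAS match, 3.57% an ISRE core and 11.3% the NF-kB consensus. Over the 82 promoters of the antisense genes the shares were 7.32%, 2.44% and 17.1%. A match is a run of letters and was not tested as a binding site.

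**Figure D3:**
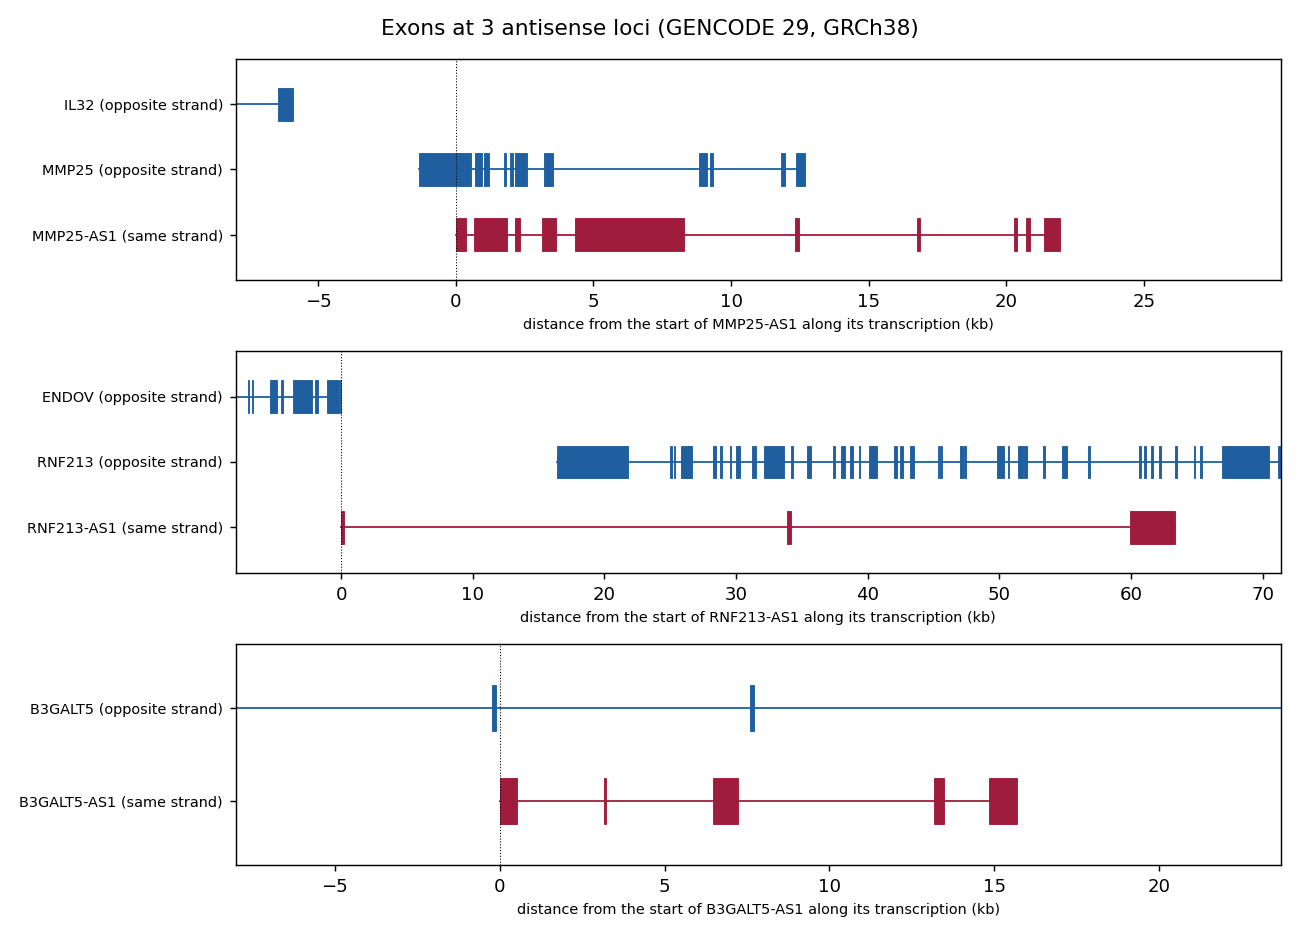
Exons (boxes) and gene spans (lines) of 3 antisense genes in red and of genes on the opposite strand in blue, by distance in kb from the start of the antisense gene along its transcription, from GENCODE 29 on GRCh38. MMP25-AS1 and RNF213-AS1 share exonic bases with their namesakes (1454 and 559 bp), B3GALT5-AS1 lies within B3GALT5 with no shared exonic base, and ENDOV starts 3 bp from RNF213-AS1.

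Among the antisense genes called lower, B3GALT5-AS1 was called in all 3 comparisons. It lies at chr21:39597147-39612821 on the minus strand inside B3GALT5, a galactosyltransferase gene that builds type 1 chain glycans, and shares no exonic base with it. Its levels were 0.315, 0.273, 0.242, 0.350 and 0.363 in the low-response set, 0.128, 0.151, 0.0859, 0.119 and 0.138 in the NF-kB-response set and 0.0231, 0.0349, 0.0308, 0.0215 and 0.0401 in the both-response set. The 3 ranges did not touch, and the NF-kB-response and both-response medians were 0.405 and 0.0979 of the low-response median (log2 -1.30 and -3.35). The both-response over the NF-kB-response ratio was -2.05 on the log2 scale.

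B3GALT5 followed the same order. Its levels were 0.349, 0.327, 0.298, 0.433 and 0.410 in the low-response set, 0.150, 0.135, 0.103, 0.206 and 0.236 in the NF-kB-response set and 0.0463, 0.0832, 0.0617, 0.0536 and 0.0267 in the both-response set. B3GALT5-AS1 gave 46.4% of the pair's UMIs in the low-response set (exact binomial interval 43.0% to 49.9%), 40.9% in the NF-kB-response set (36.4% to 45.4%) and 32.3% in the both-response set (23.3% to 42.5%), the last from 32 of 99 UMIs. By hashed sample the share ran from 44.7% to 47.5% in the low-response set and from 36.6% to 52.8% in the NF-kB-response set. In the both-response set it ran from 28.6% to 60%, with a median of 33.3%. The 60% came from HTO4+HTO9, which held only 3 UMIs of B3GALT5-AS1. The share of thinned cells with a UMI of B3GALT5-AS1 was 14.2%, 5.50% and 1.64%. The sum of epithelial markers, mostly keratins, was also lower in the NF-kB-response and both-response sets, and its part in this was not tested.

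IGFL2-AS1 lies 59977 bp from the start of IGFL2, a gene for a secreted protein like insulin-like growth factor, and does not overlap it. Its levels were 0.927, 0.633, 0.760, 1.03 and 1.19 in the low-response set, 0.415, 0.237, 0.481, 0.579 and 0.427 in the NF-kB-response set and 0.322, 0.263, 0.601, 0.241 and 0.187 in the both-response set. All 10 values of the responding sets lay below the low-response values, with medians of 0.461 and 0.284 of the low-response median. HTO3+HTO9 at 0.601 was close to the lowest low-response value of 0.633. IGFL2 gave 38 UMIs in all kept cells, too few to set beside it.

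**Figure D4:**
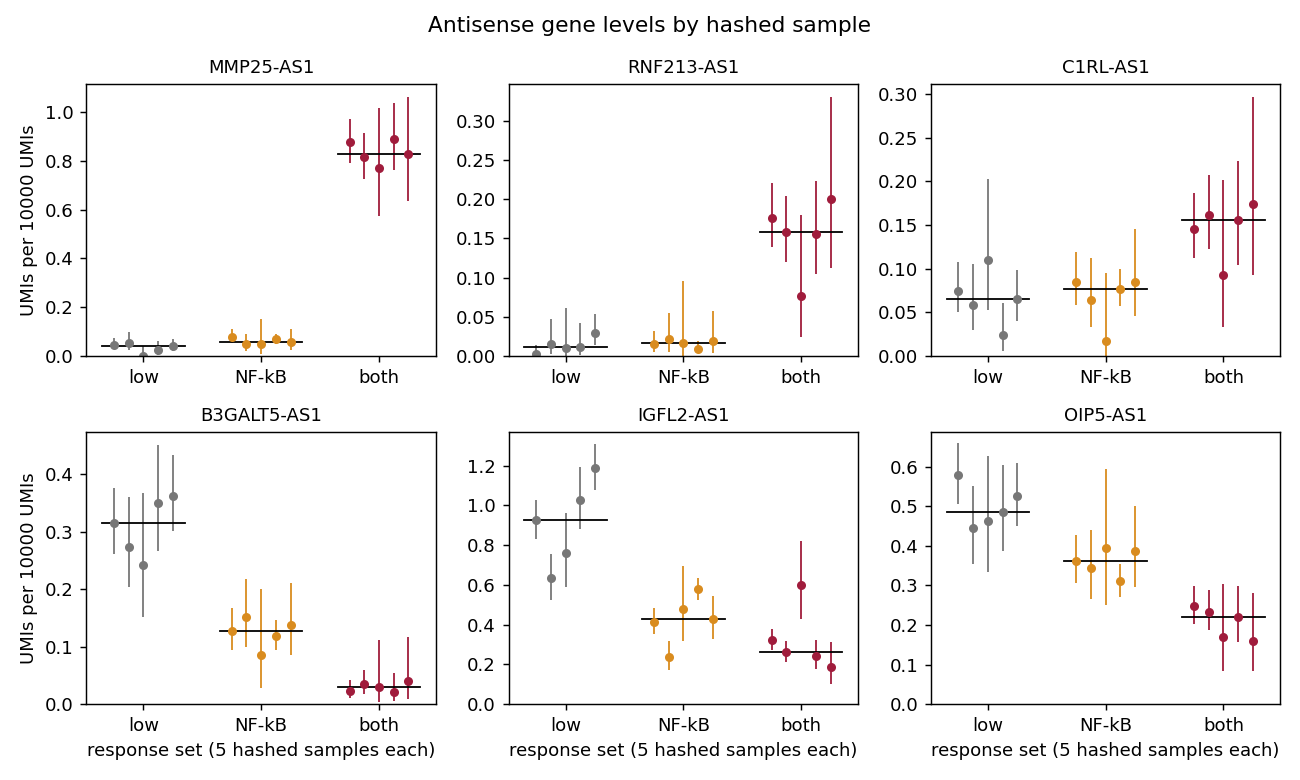
Levels, in UMIs per 10000 UMIs, of 3 antisense genes called higher in the both-response set (top) and 3 called lower (bottom) for the 15 hashed samples in 3 sets of 5. Points are hashed samples, vertical lines exact 95% Poisson intervals (counting error only), horizontal lines set medians. MMP25-AS1 stood at 0.771 to 0.890 in the both-response set and at most at 0.0800 elsewhere, and B3GALT5-AS1 stepped down from 0.242 to 0.363 to at most 0.0401.

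The other antisense genes called lower in the both-response set than in the low-response set had fewer UMIs. ARHGAP5-AS1, which diverges from ARHGAP5, had levels of 0.0551 to 0.107 against 0.00463 to 0.0534, so the nearest values almost touched. Its ratio of medians was 0.194, while ARHGAP5 went from a median of 1.30 to 0.887. HOXA-AS2, from within the HOXA cluster of homeobox genes, had levels of 0.130 to 0.289 against 0.0134 to 0.115 and has no namesake gene. ZBED5-AS1 had a ratio of medians of 0.351, MAPKAPK5-AS1 of 0.461 and PITPNA-AS1 of 0.495. MAPKAPK5-AS1, named after a protein kinase gene, had levels of 0.160 to 0.252 against 0.0935 to 0.140. PITPNA-AS1, named after a phosphatidylinositol transfer protein gene, had medians of 0.125, 0.0600 and 0.0617, so the NF-kB-response and both-response sets stood alike, though its ranges in the NF-kB-response and low-response sets overlapped. Scaling by median-of-ratios size factors left B3GALT5-AS1 alone of these 8 called.

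SLC9A3-AS1, named after a sodium and hydrogen exchanger gene, was lower in the both-response set than in the NF-kB-response set. Its levels were 0.0519 to 0.120 in the NF-kB-response set and 0.0215 to 0.0462 in the both-response set, with a ratio of medians of 0.499. SLC9A3 itself gave 12 UMIs.

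Antisense and namesake genes were then set side by side. A namesake had a row in the matrix for 83 of the 85, the exceptions being HOXA-AS2 and ST20-AS1. Of these namesakes 60 had at least 200 UMIs, 23 had fewer and 7 had at most 10. The antisense gene had more UMIs than its namesake in 38 pairs, and in 15 of the 60 pairs with an abundant namesake. The median namesake of the 60 had 2.46 times the UMIs of its antisense gene.

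For the both-response over the low-response set, both genes of the pair had a lower median in 35 of 60 pairs and both a higher one in 10. In 7 pairs the antisense gene was higher and the namesake lower, and in 8 the reverse. With 74.1% of antisense genes and 72.4% of all genes below 0, many pairs share the lower direction without being tied. For the both-response over the NF-kB-response set the counts in the same order were 36, 7, 9 and 8, and for the NF-kB-response over the low-response set they were 23, 16, 7 and 14. In the comparisons with the both-response set, 2 of the 60 pairs were called in the same direction, those of RNF213 and B3GALT5, and 0 in opposite directions.

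**Figure D5:**
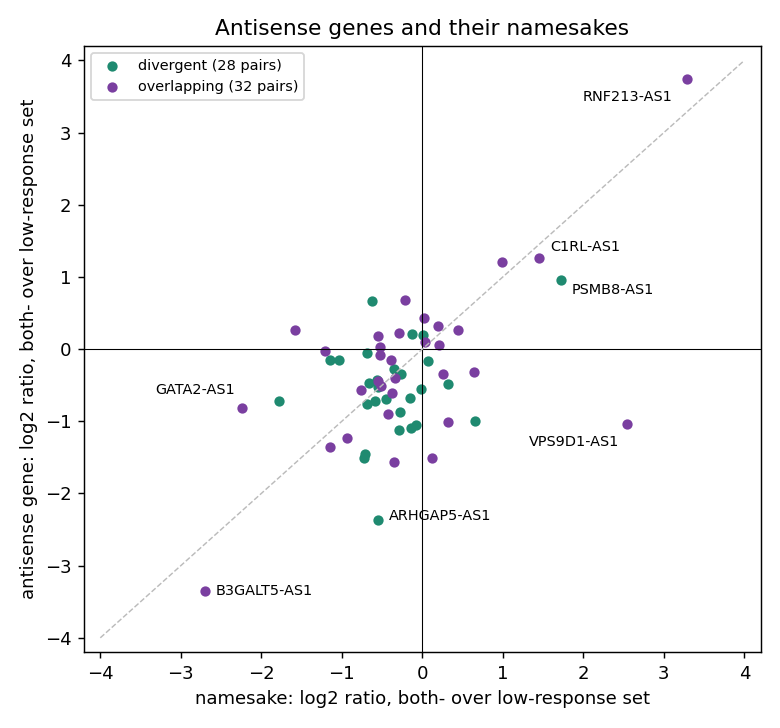
Log2 ratio of set medians, both-response over low-response, of the antisense gene (vertical axis) against its namesake (horizontal axis) for the 60 pairs whose namesake has at least 200 UMIs, coloured by whether the pair diverges or overlaps. The dashed line marks equal ratios. RNF213-AS1 (3.74 against 3.29 for RNF213) and B3GALT5-AS1 (-3.35 against -2.70 for B3GALT5) lie at opposite ends. VPS9D1-AS1 lies below 0 while VPS9D1 lies above.

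Of the 60 namesakes 8 were called between the both-response and low-response sets, 2 of them with their antisense gene. The other 6 were VPS9D1, GATA2, PSMB8, TRAM2, PSMG3 and C1RL, and the pairs of the first 5 of these are named only after their values were seen. TRAM2 had medians of 0.240 and 0.0697 in the low-response and both-response sets and TRAM2-AS1 of 0.0878 and 0.0534, with overlapping ranges of the antisense gene. PSMG3, a proteasome assembly gene, had medians of 1.29 and 0.630, and PSMG3-AS1 of 0.0593 and 0.0532.

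VPS9D1, a gene for a VPS9-domain protein, stood at 0.0110 to 0.0483 in the low-response set, 0.0108 to 0.0515 in the NF-kB-response set and 0.134 to 0.191 in the both-response set. VPS9D1-AS1 stood at 0.0661 to 0.236, 0.0765 to 0.160 and 0.0267 to 0.0925, so its set medians of 0.152, 0.131 and 0.0741 went the other way with overlapping ranges. VPS9D1-AS1 gave 82.2% of the pair's UMIs in the low-response set (exact binomial interval 76.3% to 87.2%), 79.9% in the NF-kB-response set (73.9% to 85.1%) and 28.3% in the both-response set (23.0% to 34.0%). By hashed sample the both-response share was 16.7% to 33.3%, below every value of the other sets, of which the lowest was 70.9%.

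GATA2, a transcription factor gene from the same 6 pairs, was lower in the responding sets, with medians of 0.253, 0.0859 and 0.0537. GATA2-AS1 had medians of 0.204, 0.150 and 0.116, and its share of the pair's UMIs was 47.4%, 60.3% and 68.9%. PSMB8, an immunoproteasome subunit gene, stood at 0.749 to 1.38 in the low-response set and 3.39 to 4.63 in the both-response set. PSMB8-AS1 had medians of 0.0442 and 0.0859, with overlapping ranges, and shares exons with PSMB9 on its own strand, so its reads cannot be told apart from those of PSMB9 by position alone. PSMB9 stood at 0.793 to 1.24 in the low-response set and 5.43 to 6.98 in the both-response set.

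By position, 30 of the pairs diverged, with starts a median of 352.5 bp apart, 52 overlapped in another way, 1 lay apart and 2 had no match. Exons of antisense gene and namesake overlapped in 62 pairs, and reads of the namesake counted as the antisense gene were not tested in them. Exons of 4 antisense genes also overlapped those of an expressed gene on the same strand. For 42 of the 85, an expressed gene on the opposite strand started within 1000 bp. At any distance, the nearest such start was that of the namesake for 46 of the 85. In 28 divergent pairs with an abundant namesake the medians of the log2 ratios, both-response over low-response, were -0.54 for the antisense genes and -0.40 for the namesakes, and in 32 overlapping pairs they were -0.23 and -0.34. The difference between these classes was not tested.

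Single cells showed most of the antisense genes rarely. After thinning each paired cell to 5000 UMIs, which left 2928 cells and left out 216 (56, 96 and 64 in the 3 sets), the share of cells with at least 1 UMI ran from 1.98% to 57.8%, with a median of 4.95%. It was under 5% for 44 genes and over 20% for 5. PAX8-AS1 was seen in 58.5%, 65.0% and 46.9% of thinned cells of the 3 sets, and before thinning in 79.2%, 81.4% and 72.3%. Almost all cells are of 1 line, so the share that free RNA gives in cells without these genes was not measured.

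How evenly UMIs fell over cells could be read only for the 10 genes with at least 500 thinned UMIs, since for 44 genes all thinned UMIs fit into the top 5% of cells. That last group, set by ties, includes MORC2-AS1, ZBED5-AS1 and PAXIP1-AS1. The top 5% of cells held 21.2% of the UMIs of PAX8-AS1 and 53.0% of those of IGFL2-AS1, with up to 10 UMIs of IGFL2-AS1 in 1 thinned cell. IGFL2-AS1 was thus seen in 17.2% of thinned cells, close to the 18.5% of ZFPM2-AS1, while ZFPM2-AS1 had 35.1% of its UMIs in the top 5%. This measure pools the sets, between which IGFL2-AS1 differed (26.6%, 14.2% and 11.7% of thinned cells) more than ZFPM2-AS1 (19.8%, 18.0% and 17.8%), and the part of that in its concentration was not tested. Antisense gene and namesake were not seen together in a steady way across pairs. In thinned low-response cells, the namesake was seen more often with its antisense gene in 17 of 28 pairs and less often in 10. The median difference was 0.746 percentage points, with a range of -9.91 to 15.2. The counts were 18 and 16 of 35 pairs in the NF-kB-response set and 9 and 8 of 18 in the both-response set. B3GALT5 was seen in 28.3% of low-response cells with B3GALT5-AS1 and 13.2% without. The shares were 18.5% and 7.26% in the NF-kB-response set. In the both-response set they were 0% and 3.21%, with only 14 cells that held B3GALT5-AS1.

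SOX9-AS1, named after a transcription factor gene, was singled out after its values were seen. It had at least 2 UMIs in 23 paired cells from 9 hashed samples, with 54 UMIs in these cells. Those cells had a median mitochondrial share of 16.3% against 13.0% in the other 3121. The level of its namesake SOX9 was 0.753 in them against 0.505. MBNL2, a splicing regulator gene, stood at 0.687 against 0.168, and NFATC2, a transcription factor gene, at 0.196 against 0.120. MBNL2 and NFATC2 were picked because earlier work on these same cells named them with SOX9-AS1, so their higher levels are no separate finding. The level of the epithelial marker EPCAM was 4.98 against 4.18. These levels pool 23 cells and are given without intervals. They also pool the sets, between which SOX9 differed, with medians of 0.367, 0.668 and 0.123. Within sets, SOX9 was seen in 13.3% of thinned low-response cells with a UMI of SOX9-AS1 and 16.5% without. The shares were 21.6% and 28.4% in the NF-kB-response set and 12.5% and 6.62% in the both-response set. A higher SOX9 in cells with SOX9-AS1 is therefore not read from the pooled levels.

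The barcodes that failed the cell filter, 1731 in all, also held these RNAs. By hashed sample their median mitochondrial share was 28.0% to 42.7%. The summed level of the 85 antisense genes in them was 0.775 to 1.22 times that in kept cells of the same hashed sample, with a median of 1.05. Leaving out mitochondrial UMIs, the ratio was 0.982 to 1.60, with a median of 1.37, and exceeded 1 in 14 of 15 hashed samples. By gene, 71 of 85 antisense genes were higher in removed barcodes on that scale, as were 4348 of all 9686 genes. The median ratio was 1.34 for the antisense genes against 0.971 for all genes. The highest ratios were 5.00 for SOX9-AS1, 3.16 for UCKL1-AS1 and 2.45 for RNF213-AS1, among the 41 genes with at least 100 UMIs in removed barcodes. Among all 85, the lowest was 0.473 for AGAP2-AS1, from 26 UMIs, and VPS9D1-AS1 stood at 0.665.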

How the data were processed

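The values deposited are whole-number UMI counts for each gene, hashtag and barcode, not normalized, from 1 10x Genomics 3' gene expression library and 1 hashtag library. Cell Ranger 5.0.1 wrote the matrix, per the file headers, whereas version 2.1.1 is given with GRCh38 in the submitters' processing notes. Which applies was not settled, and the sources used here do not state whether counting used strand.

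The cell filter asked for 1000 genes or more and 20% mitochondrial UMIs or fewer. A pair was read from the 2 top hashtags where the weaker of them had 10 counts or more and 3 times the next one or more. This left 394 kept cells without a clear pair, 389 of them with 10 counts or more of the next hashtag, and these were not used by set. No doublet caller was run here, and doublets within a hashed sample were not sought. Counts were summed per hashed sample and divided by its UMIs, times 10000, in python 3.11.15 with numpy 2.4.6, scipy 1.17.1 and pandas 2.3.3. Gene positions came from GENCODE 29, in which 34616 of 36601 gene IDs and all 85 antisense genes were found, 82 under the same symbol.

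The sets were inferred from response genes, not labels, so only levels, ranges and the call described below are given, with no p-values. On simulated counts for the both-response over the NF-kB-response set, run on 9686 genes, the call of no overlap with 2-fold medians found 1, 19, 44 and 50 of 50 genes changed by 1.5, 2, 4 and 8 times, and 1 of 9486 unchanged genes.

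The genes named are the 8 with most UMIs, up to 8 called genes per comparison and direction, genes whose namesake was called in the opposite direction (none), genes named after a response list gene (none), those next to the threshold and the 3 most concentrated in few cells. Others are marked as chosen after seeing values. The members, sets and lists were chosen with earlier results of these data known. Alternatives changed the fold, scaling, cell filter, hashtag rule, count minimum, depth and hashed samples used. The use of median-of-ratios scaling for the summed level and the omission of hashed samples under 100 cells were added after seeing the data.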

Additional observations from a re-analysis of the deposited data

Results flagged for a closer look

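Among 69 groups of 5 values (23 named antisense genes in 3 sets), 3 held a hashed sample far from the others, where chance flags about 1 in 20. PAX8-AS1 stood at 2.03 in HTO3+HTO9 of the both-response set, with the next highest at 1.37. GABPB1-AS1 stood at 0.882 in HTO3+HTO7 of the low-response set, with the next lowest at 1.33, and at 0.893 in HTO3+HTO5 of the NF-kB-response set, with the next lowest at 0.993. These 3 hashed samples all carry HTO3 and held 53, 71 and 49 cells, the fewest in their sets. HTO3+HTO9 and HTO3+HTO5 also had the lowest sums of the interferon gamma list (186 and 6.49) and of the TNF and NF-kB list (95.2 and 58.3) in their sets. HTO3+HTO7 had the highest TNF and NF-kB sum of the low-response set, 10.8, and its lowest interferon gamma sum, 4.41. The part of cell number, hashtag or response level in these values was not tested.

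Barcodes that failed the cell filter held the 85 antisense genes at 17.2 UMIs per 10000 UMIs, and kept cells with no clear hashtag pair held them at 17.4. HTO1, which marked no hashed sample, had 97 counts over all barcodes.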

How the results depend on the processing

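No paired analysis was possible because the values come from no test and the labels give the hashed samples no replicate numbers. Counts of called antisense genes are given as both-response over low-response, both-response over NF-kB-response and NF-kB-response over low-response. With a 1.5-fold limit, 14 were lower in the first comparison and 6 in the second. Median-of-ratios scaling left 1 lower in the first and 1 in the second. A mitochondrial limit of 10% left 19 antisense genes past 200 UMIs, with 1 higher and 1 lower in the first comparison, 0 higher and 1 lower in the second and 0 lower in the third. Using all barcodes gave 6 higher in the first and 1 lower in the second. A hashtag ratio of 10 gave 1 lower in the second. A minimum of 500 UMIs left 37 genes, with 1 higher and 5 lower in the first comparison and 1 higher and 1 lower in the second. A minimum of 50 UMIs gave 255 genes, with 6 higher and 15 lower in the first, 6 higher and 4 lower in the second and 5 lower in the third. Thinning to 5000 UMIs gave 5 lower in the first and 1 lower in the third. Without the hashed samples under 100 cells, an alternative chosen after seeing the data, 14 were lower in the first and 5 in the second. Leaving out 1 hashed sample at a time gave 2 to 4 higher and 7 to 12 lower in the first, 2 to 3 higher and 1 to 3 lower in the second, and 0 to 1 higher and 1 to 4 lower in the third.

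Of the 17 calls on single antisense genes, tried under 22 settings each (374 in all), 313 stayed past both limits, 61 did not and 0 reversed. The both-response over low-response calls of MMP25-AS1 (log2 4.24 to 4.67) and B3GALT5-AS1 (-3.84 to -3.11) were lost under none of these settings. RNF213-AS1 lost its calls under 1 setting, the 10% mitochondrial limit, while its log2 ratios stayed at 3.43 to 4.64 over the low-response and 3.10 to 3.86 over the NF-kB-response set in all settings. PITPNA-AS1 lost its call under 11, SLC9A3-AS1 under 10 and C1RL-AS1 under 9. With the least abundant of the 85 at 209 UMIs in all kept cells, small differences in them were not detectable at this depth.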
